A study of Mus musculus with 23 samples.

Results

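The Rnf genes of the mouse encode RING finger proteins, named and numbered for the zinc-binding RING domain that they share. Members were every probe set of the Affymetrix MOE430A and MOE430B arrays whose annotation names a single gene with the symbol Rnf and a number. This rule used no measured value, but it was set with earlier results of these data known. The rule gave 168 probe sets of 78 genes, out of 18192 genes that a probe set names alone. MOE430A held 101 of the 168 probe sets (56 genes) and MOE430B 67 (42 genes), with 20 genes on both kinds of array.

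The tissue was the CA3 region of the hippocampus, cut by laser from stained frozen sections of UBB+1 tg and wild-type mice at an age of 18 months. The UBB+1 tg mice were heterozygous for a transgene that expresses UBB+1, a frameshifted form of ubiquitin B, from the CaMK2α promoter, which is active mainly in excitatory neurons of the forebrain. They came from a single transgenic line on a C57BL/6J background, and their non-transgenic littermates served as wild type. MOE430A measured 6 UBB+1 tg and 5 wild-type mice, and MOE430B the same 11 mice and 1 further wild-type mouse. RNA went through 2 rounds of amplification from 5 ng. The comparison asks whether transcripts of this ligase family differ in neurons that express an inhibitor of the proteasome.

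RING finger proteins are mostly E3 ubiquitin ligases. They bind a substrate and an E2 enzyme that carries ubiquitin, and so decide which proteins are marked for the proteasome, for the lysosome or for signalling. RBR ligases, which have a RING domain on each side of an in-between-RING domain, first take the ubiquitin onto a cysteine of their own. Family members act at the endoplasmic reticulum, on endosomes, at the plasma membrane and on chromatin, and several are studied in neurons for their part in protein quality control.

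No Rnf transcript differed between UBB+1 tg and wild-type CA3 at a false discovery rate of 10%. By limma over all probe sets of an array, with Benjamini-Hochberg adjustment, 0 of 101 Rnf probe sets passed on MOE430A and 0 of 67 on MOE430B, against 0% of all probe sets on either array. Adjusted p ranged from 0.984 to 0.999 on MOE430A and was 1.00 for every Rnf probe set of MOE430B. At an unadjusted p under 0.05 from the same fit there were 6 of 101 on MOE430A (5.94%, against 3.48% of all probe sets) and 4 of 67 on MOE430B (5.97%, against 3.05%). The leading differences were higher levels of Rnf145, Rnf141, Rnf32, Rnf166, Rnf17, Rnf150, Rnf20, Rnf103 and Rnf10 and a lower level of Rnf13, and none of them passed after adjustment. In tissue of this kind, fewer cells of a type and less RNA per cell cannot be told apart.

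By direction, 5 of the 6 probe sets on MOE430A were higher in UBB+1 tg mice, where 1.91% of all probe sets were higher at that p, and 1 was lower, against 1.57%. All 4 of MOE430B were higher, against 1.52% of all probe sets, and 0 were lower, against 1.53%. Differences of 1.5-fold or more were seen for 2 Rnf probe sets of MOE430A (1.98%, against 1.68% of all) and for 0 of MOE430B, against 0.56%. The genotypes did not overlap for 1 Rnf probe set of MOE430A (0.99%, against 0.234% of all) and for 0 of MOE430B, against 0.142%. These are small numbers of probe sets, and the shares lie within a few probe sets of those of the whole array.

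The family as a whole did not shift in one direction. On MOE430A, 61 Rnf probe sets were higher in UBB+1 tg mice (60.4%, against 51.7% of all probe sets) and 40 lower. The median log2 difference (UBB+1 tg minus wild type, as all differences below) was 0.06 beside 0.00 for all probe sets. On MOE430B, 26 were higher (38.8%, against 47.6% of all probe sets) and 41 lower, with a median of -0.02 beside -0.01. With each gene taken by its probe set of highest mean level, 44 genes were higher and 34 lower, with a median of 0.03. Differences reached from -0.70 to 0.83 on MOE430A and from -0.19 to 0.41 on MOE430B.

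**Figure D1:**
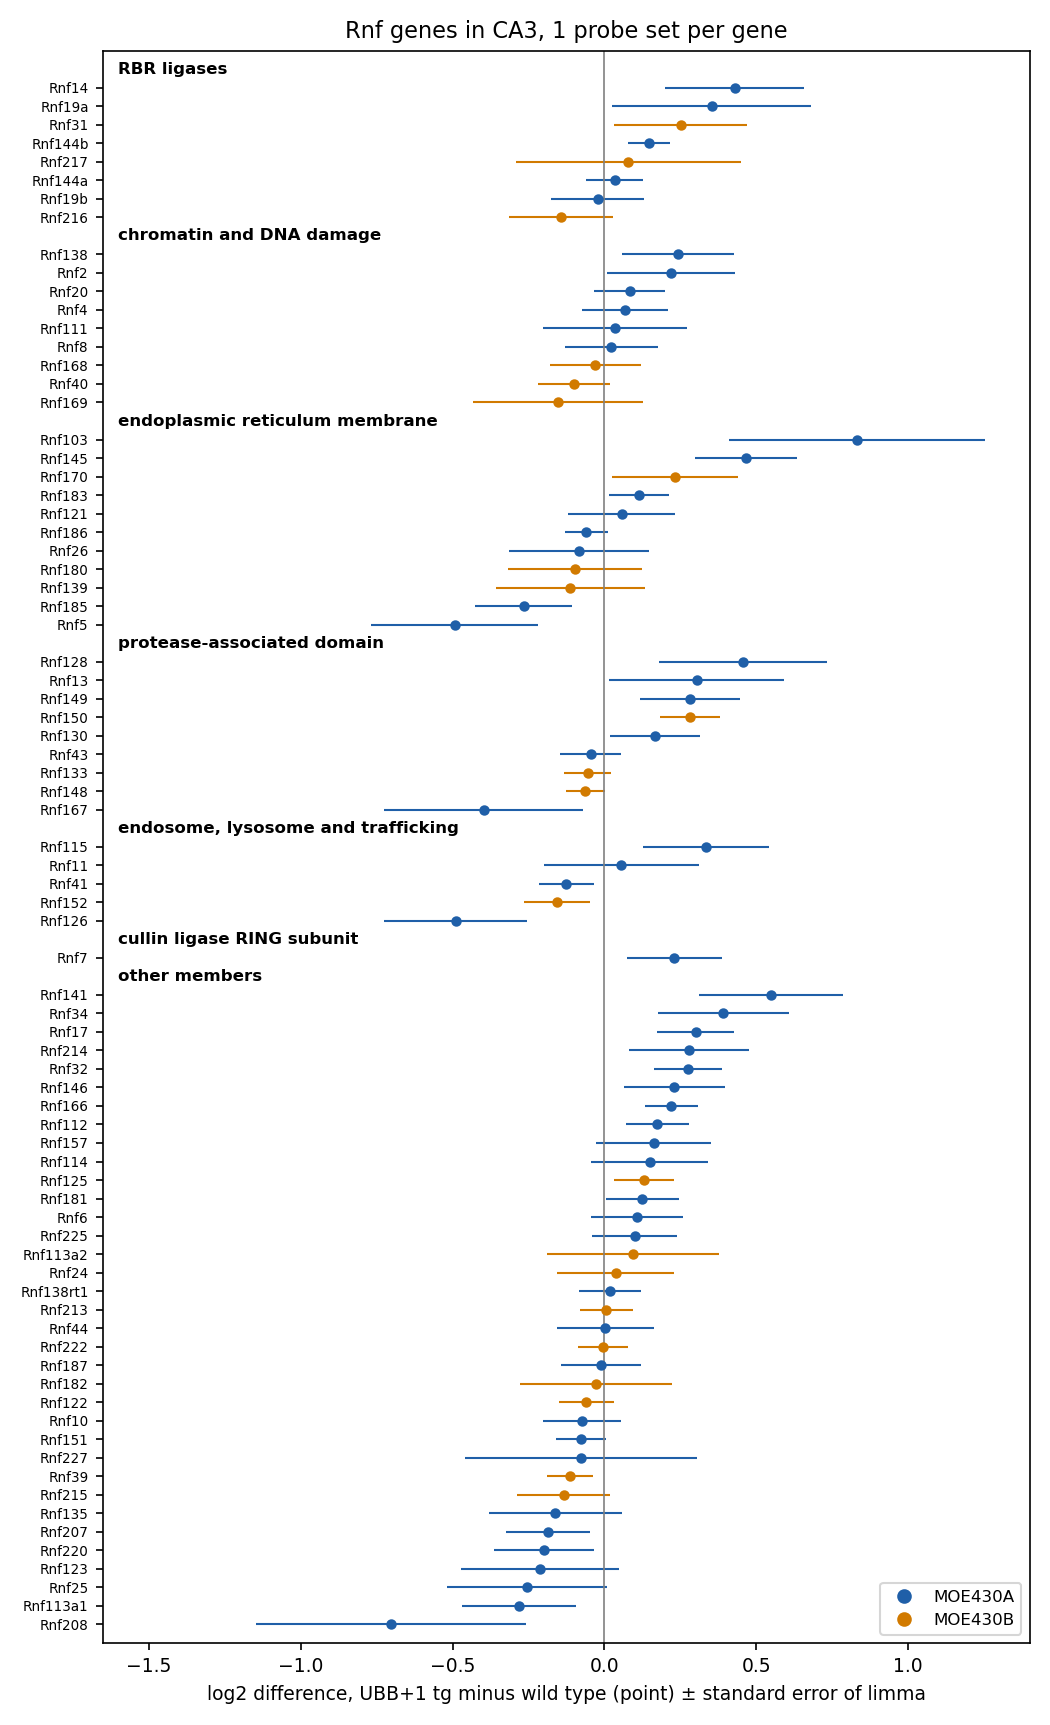
Log2 difference between UBB+1 tg and wild-type CA3 (horizontal axis, point, with the standard error from limma as a bar) for each of the 78 Rnf genes, taken by its probe set of highest mean level and grouped by role, blue for MOE430A and orange for MOE430B. Every role group with more than 1 gene has members on both sides of 0, with Rnf103 at 0.83 and Rnf208 at -0.70 as the ends.

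Arrays of this series were divided into 3 sets, a number that was set and not found, and the sets did not follow the genotype. By complete-linkage clustering of all probe sets, 1 UBB+1 tg and 2 wild-type mice formed a set with the smallest difference between 3' and 5' control probes, and 1 mouse of each genotype a set with the largest. They are called the low and the high array set, and the other mice the middle one. Sets were the same on both arrays for all 11 shared mice. This difference, a measure of how far the RNA reaches towards its 5' end, was on MOE430A 4.61 ± 0.83 (SD, n = 6) in UBB+1 tg mice against 4.10 ± 1.45 (SD, n = 5) in the wild type, with p = 0.435 by an exact permutation test (two-sided). On MOE430B it was 4.85 ± 0.81 (SD, n = 6) and 4.22 ± 1.51 (SD, n = 6), with p = 0.407 (exact permutation test, two-sided). Because the sets were drawn from these same values, the shares of variance that they hold are raised by construction. An unadjusted p from a fit with set as a block is limited in the same way, since the blocks come from the values tested. Of the variance within genotype of an Rnf probe set, array sets held a median of 52.6% on MOE430A, beside 44.1% for all probe sets. On MOE430B this was 32.0%, beside 34.7%. Values within a set are therefore given with the results, and the part of RNA quality in them was not tested.

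The endoplasmic reticulum group held both the largest rise and one of the largest falls. Its 11 ligases sit in that membrane, where several act in the degradation of misfolded or excess membrane proteins. By gene, 5 were higher and 6 lower in UBB+1 tg mice, with a median of -0.06. Of its 19 probe sets, 2 had an unadjusted p under 0.05 (all probe sets: 3.48% on MOE430A and 3.05% on MOE430B) and 0 an adjusted p under 0.10 by limma.

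Rnf145, a ligase that acts in sterol control at this membrane, was among the members with the smallest p. Its log2 intensities in wild-type mice were 8.40, 8.51, 8.96, 8.97 and 9.11, and those of UBB+1 tg mice ran from 8.90 to 9.70 with a median of 9.27. All 6 UBB+1 tg mice lay above the wild-type mean, though the lowest of them overlapped with 3 wild-type mice. The log2 difference was 0.47 (standard error 0.17, 95% interval 0.10 to 0.83, adjusted p = 0.984 by limma). An exact permutation test over mice gave p = 0.0303 (two-sided, not adjusted). By array set (low, middle, high) the difference was 0.58, 0.32 and 0.24, and it was 0.37 in a fit with set as a block, so that it kept its direction in each set.

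Rnf103, a ligase of the endoplasmic reticulum first known from brain, had the largest rise of all members on MOE430A. Wild-type mice had log2 intensities of 6.34, 6.77, 8.15, 8.54 and 8.71, and UBB+1 tg mice from 8.02 to 9.13 with a median of 8.55. Both low values belonged to the wild-type mice of the low array set. The log2 difference was 0.83 (standard error 0.42, adjusted p = 0.984 by limma), but it was 0.01 in the middle set alone, 1.46 in the low set and 0.49 without wild-type mouse wt287. Among wild-type mice alone, those of the middle set were 2.07 above those of the low set. A second probe set, on MOE430B, rose by 0.29 (standard error 0.13), with 0.20, 0.35 and 0.03 in the low, middle and high sets. Its wild-type values were 8.46, 8.59, 8.64, 8.81, 8.98 and 9.21, and UBB+1 tg mice ran from 8.81 to 9.27. Thus both probe sets were higher in UBB+1 tg mice, and on the second the difference within the middle set was as large as that over all mice. Neither passed the false discovery rate.

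Rnf5, which is anchored in the same membrane and acts in the degradation of misfolded proteins, lay at the other end of the group with a log2 difference of -0.49 (standard error 0.28). Wild-type mice had 8.30, 8.50, 8.70, 9.51 and 9.58, and UBB+1 tg mice ran from 7.95 to 9.11 with a median of 8.41. The 2 highest wild-type values were those of the low array set. Array sets held 90.8% of the variance of this probe set within genotype. Within the low, middle and high sets the difference was -0.43, -0.23 and -0.36. Without wild-type mouse wt290 it was -0.33. Its close relative Rnf185, also a ligase of endoplasmic reticulum degradation, had -0.27 and -0.15 on its 2 probe sets.

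The other ligases of this membrane each had an unadjusted p above 0.05. Rnf139, a sterol-sensing ligase, had -0.11 and -0.07, and Rnf180, which marks monoamine oxidase A for degradation, had -0.10 and -0.04. Rnf170, which acts on the inositol trisphosphate receptor, had 0.23 on the probe set of highest level and -0.08 and -0.01 on the others. Rnf26, which holds endosomes near the nucleus, had -0.08 and -0.14. Rnf183 and Rnf186, known mainly from epithelia, had 0.11 and -0.06. Rnf121, which also acts in the secretory pathway, had 0.06 on one probe set and -0.33 (standard error 0.19) on the other, which was among the 5 largest falls on MOE430A and was at -0.20 without wild-type mouse wt287.

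The ligases with a protease-associated domain are membrane proteins whose luminal part binds substrates in endosomes, lysosomes or at the cell surface. Of these 9 genes, 5 were higher and 4 lower, with a median of 0.17, and 2 of 16 probe sets had an unadjusted p under 0.05, where 3.48% of all probe sets of MOE430A and 3.05% of MOE430B did.

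Rnf13, an endosomal and lysosomal ligase, held the single Rnf probe set whose genotypes did not overlap. Its log2 intensities were 6.32, 6.32, 6.34, 6.36 and 6.55 in wild-type mice, and ran from 6.04 to 6.30 with a median of 6.18 in UBB+1 tg mice. Every UBB+1 tg mouse was below every wild-type mouse, yet the gap between the genotypes was far smaller than the range within either. The log2 difference was -0.20 (standard error 0.08, adjusted p = 0.984 by limma), and the exact permutation test gave p = 0.0108 (two-sided, not adjusted). It was -0.32 in the middle array set and -0.04 in each of the others. The probe set of highest level for the same gene differed by 0.30 (standard error 0.29) in the opposite direction, and those on MOE430B by 0.05 and 0.01. The lower value therefore holds for that probe set and was not seen for the gene as a whole.

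Rnf150, a less studied ligase of the same group, was higher on MOE430B. Wild-type mice had 8.69, 8.85, 9.12, 9.14, 9.14 and 9.16, and UBB+1 tg mice ran from 9.11 to 9.52 with a median of 9.27. The genotypes overlapped by the lowest UBB+1 tg mouse, and the 2 low wild-type values were again those of the low array set. The log2 difference was 0.28 (standard error 0.10, adjusted p = 1.00 by limma) and the exact permutation test gave p = 0.0108 (two-sided, not adjusted). It was 0.64, 0.07 and 0.38 within the low, middle and high sets.

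Rnf128, known from T cell anergy, had 0.46 and 0.35 on its 2 probe sets, but the first was at -0.06 in the middle array set. Rnf167, a lysosomal ligase, had -0.40 over all mice and 0.07 in the middle set. Their standard errors were 0.28 and 0.33. Without 1 mouse these values came down to 0.29 for Rnf128 (without tg277) and -0.16 for Rnf167 (without wt290). Rnf149 had 0.28. Rnf130 had 0.17 on MOE430A and from -0.10 to 0.24 on MOE430B. Rnf43, which removes Wnt receptors from the cell surface, had -0.05 on a probe set under the 25th percentile of mean level, here called dim. Rnf133 and Rnf148, known mainly from testis, had -0.06 each.

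The RBR ligases had 6 genes higher and 2 lower, with a median of 0.11. Of their 20 probe sets, 0 had an adjusted p under 0.10 or an unadjusted p under 0.05 by limma, against 3.48% and 3.05% of all probe sets of the arrays at the latter. With set as a block, 3 had an unadjusted p under 0.05, beside 7.19% of all probe sets of MOE430A, where the 3 lie. Rnf14, which binds nuclear receptors and acts on stalled ribosomes, had the largest difference of the group. Its log2 intensities were 9.71, 9.90, 9.92, 10.22 and 10.63 in wild-type mice and from 9.82 to 11.06, median 10.64, in UBB+1 tg mice. The log2 difference of 0.43 (standard error 0.23, adjusted p = 0.984 by limma) was 0.64, 0.51 and 0.43 by array set (low, middle, high) and 0.53 with set as a block. Other probe sets of Rnf14 had 0.15, 0.32 and, for a dim one, 0.00. In the blocked fit the probe set at 0.43 (unadjusted p = 0.00736, limma) and that at 0.32 (unadjusted p = 0.0134) passed 0.05, with adjusted p of 0.658 and 0.680.

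Rnf31, the catalytic subunit of the complex that builds linear ubiquitin chains, had 0.25 (standard error 0.22), and 0.07 without UBB+1 tg mouse tg271. Rnf19a, first found with inclusions in motor neuron disease, had 0.35 and 0.24, the latter with an unadjusted p of 0.0467 in the blocked fit of limma, and its paralog Rnf19b -0.02 and -0.07. Rnf144a, which acts in the DNA damage response, stayed within 0.03 to 0.07 on its 3 probe sets. Its paralog Rnf144b had 0.15, with all 6 UBB+1 tg mice above the wild-type mean and p = 0.00866 by the exact permutation test (two-sided, not adjusted), but -0.06 and -0.01 on MOE430B. Rnf216, which is mutated in a human form of ataxia, had -0.14, and Rnf217 between -0.11 and 0.09 on 4 probe sets.

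Among the 9 genes for chromatin and the DNA damage response, 6 were higher and 3 lower, with a median of 0.03. Rnf20, which ubiquitinates a core histone together with Rnf40, had the 1 probe set of 21 with an unadjusted p under 0.05, a level that 3.48% of all probe sets reached on MOE430A and 3.05% on MOE430B. On MOE430B, wild-type mice had 4.81, 4.94, 5.07, 5.07, 5.14 and 5.17, and UBB+1 tg mice ran from 4.92 to 5.88 with a median of 5.47. UBB+1 tg mice spread more widely than wild-type mice, and 5 of 6 lay above the wild-type mean. The log2 difference was 0.41 (standard error 0.15, adjusted p = 1.00 by limma) and was positive in each array set, at 0.77, 0.30 and 0.57. The 3 probe sets of Rnf20 on MOE430A had 0.08, 0.06 and -0.16, and its partner Rnf40 -0.10.

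Rnf2, the catalytic subunit of Polycomb repressive complex 1, had 0.22 on its probe set of highest level and between -0.10 and -0.03 on 4 others. Rnf8 and Rnf168, which act one after the other at double-strand breaks, had 0.02 and -0.03. Rnf4 and Rnf111, which recognise SUMO chains, had 0.07 and 0.03. Rnf138, a ligase of break repair, had 0.24, and Rnf169, which limits repair factors at breaks, had -0.15 over all mice and 0.06 in the middle array set on one probe set and 0.12 over all mice on the other. Each of these differences had an unadjusted p above 0.05.

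Of the 5 endosome and trafficking genes, 2 were higher and 3 lower. Rnf126, which works with Bag6 on misplaced membrane proteins in the cytosol, had -0.49 (standard error 0.24, adjusted p = 0.984 by limma). Its wild-type values were 8.65, 8.82, 9.35, 9.59 and 9.92, and UBB+1 tg mice ran from 8.33 to 9.09 with a median of 8.89. Every UBB+1 tg mouse was below the wild-type mean, but the difference was -0.33 without wild-type mouse wt287 and -0.09 in the middle array set, and in the wild type the middle minus the low set gave -1.02. Rnf115, its close relative, had 0.33 and 0.30 on 2 probe sets. Rnf11, an adaptor for ligases of the endosome, had 0.06 on its probe set of highest level and -0.04 to 0.24 on the others. Rnf41, which acts on growth factor receptors, had -0.13 and, on the others, -0.18 to 0.03. Rnf152, a lysosomal ligase, had -0.15. Rnf7, the RING subunit of cullin ligases, had 0.23 and -0.14 on its 2 probe sets.

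Of the 35 other genes, 19 were higher and 16 lower, with a median of 0.01. Rnf141, described first in testis, had 0.55 (standard error 0.24, adjusted p = 0.984 by limma) on its probe set of highest level. Wild-type mice had 7.61, 8.28, 8.44, 8.73 and 8.82, and UBB+1 tg mice ran from 8.29 to 9.34 with a median of 9.08. By array set (low, middle, high) the difference was 0.35, 0.27 and 0.63, and without wild-type mouse wt287 it was 0.36. The other probe sets of Rnf141 had -0.12, -0.12 and 0.04.

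Rnf166, a ligase of antiviral signalling and autophagy of bacteria, had the same sign on all its probe sets. On MOE430A, wild-type mice had 7.41, 7.51, 7.58, 7.64 and 7.69 and UBB+1 tg mice from 7.62 to 8.06 with a median of 7.75, a difference of 0.22 (standard error 0.09, adjusted p = 0.984 by limma). All 6 UBB+1 tg mice exceeded the wild-type mean, the lowest within the wild-type range, and the difference was 0.11, 0.25 and 0.21 in the 3 array sets. Its 2 probe sets on MOE430B had 0.13 and 0.15 with standard errors of 0.15 and 0.11.

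Rnf32, known from sperm formation, had 0.28 (standard error 0.11) on MOE430A, with 0.23, 0.30 and 0.16 by array set. Its wild-type values were 7.39, 7.41, 7.72, 7.86 and 7.86 and its UBB+1 tg values 7.79 to 8.14. The 3 probe sets of Rnf32 had both signs, with the lowest at -0.07. Rnf17, a Tudor protein of germ cells, had 0.30 (standard error 0.13) on a dim probe set and -0.01, 0.06 and 0.02 on the others. Rnf10, a ligase that also acts in signalling from synapse to nucleus, had 0.20 and -0.13 on MOE430B and -0.07 on MOE430A. Rnf34, an inhibitor of cell death, had 0.39 (standard error 0.22), and Rnf146, which recognises poly(ADP-ribose), 0.15 to 0.26 on 3 probe sets. Rnf112, a brain GTPase with a RING domain, had 0.17, 0.24 and -0.06 on its 3 probe sets.

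Rnf208 had the largest fall of all members, and it followed the array sets. Wild-type mice had 8.45, 8.97, 10.19, 10.66 and 10.75, and UBB+1 tg mice ran from 8.47 to 9.94 with a median of 8.96. The log2 difference was -0.70 (standard error 0.44, adjusted p = 0.984 by limma), yet it was -0.47 without wild-type mouse wt287 and 0.05 in the middle set, and in the wild type the middle minus the low set gave -1.99. Rnf220, a ligase of neural development, had -0.20 on MOE430A and -0.19 on MOE430B for the 1 Rnf probe set that both arrays hold. These are 2 measurements of the same sequence in largely the same mice. The highest of the 4 probe sets of Rnf220 on MOE430B had 0.04. On MOE430B, Rnf181, Rnf25, Rnf114 and Rnf39 had -0.19, -0.18, -0.12 and -0.11, each at an unadjusted p above 0.05. On MOE430A the direction was the opposite for Rnf181 (0.12) and for all 4 probe sets of Rnf114 (0.07 to 0.16), and the same for Rnf25 (-0.26), while Rnf39 has no probe set there.

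**Figure D2:**
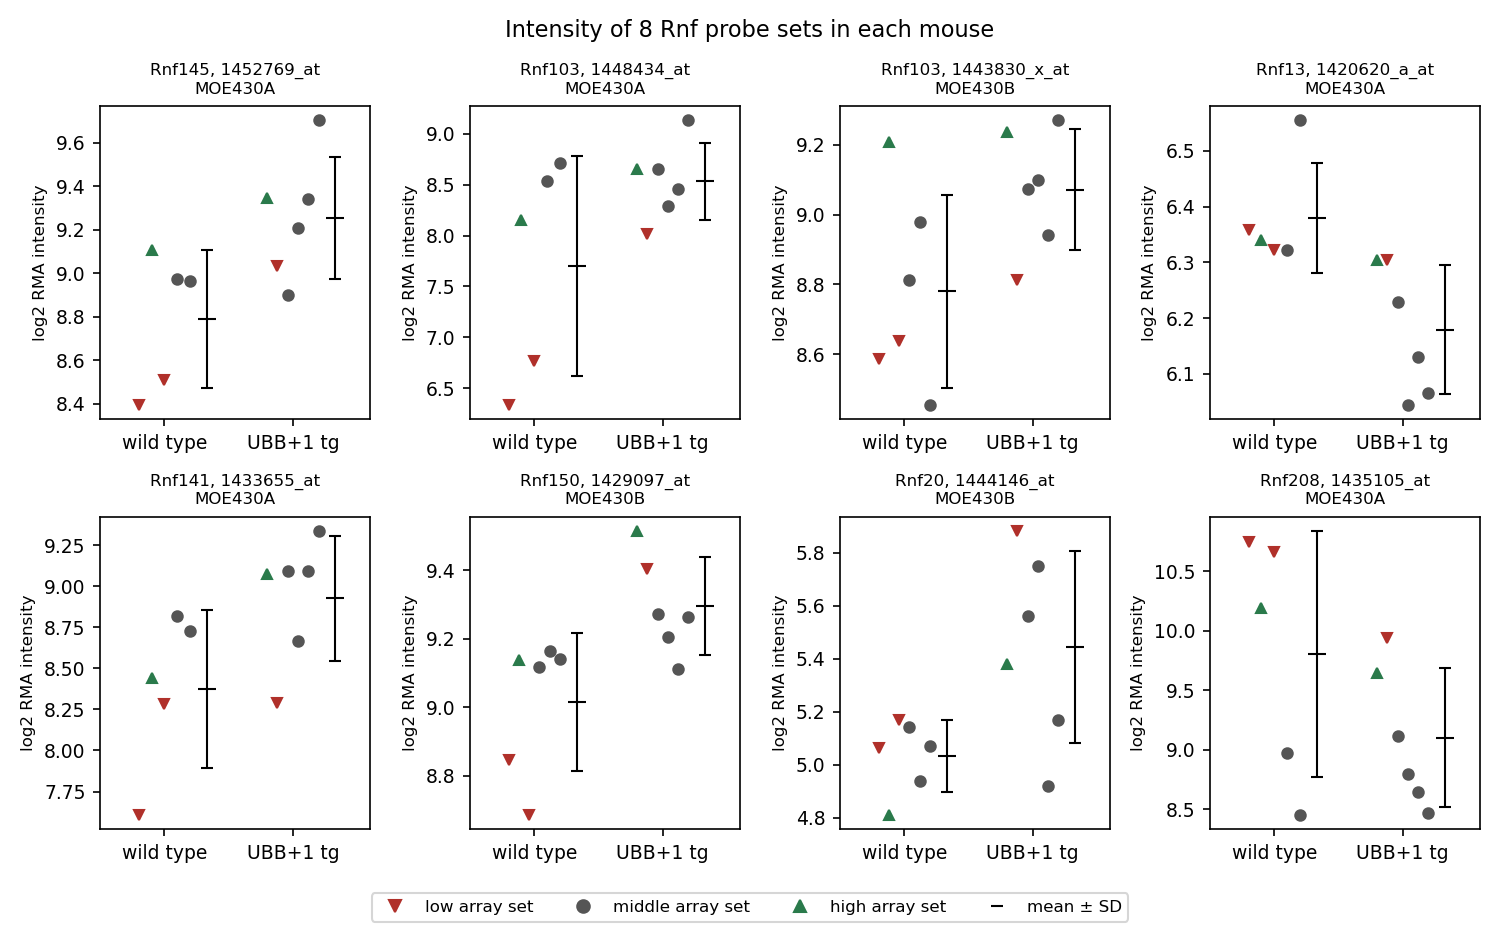
Log2 RMA intensity (vertical axes, which differ between panels and do not start at 0) of 8 Rnf probe sets in each wild-type and UBB+1 tg mouse, with mean and SD in black and the array set as the symbol (triangle down for low, circle for middle, triangle up for high). The genotypes overlap in every panel but that of Rnf13, and the 2 wild-type mice of the low set stand apart for Rnf103 on MOE430A, Rnf150 and, with the wild-type mouse of the high set, Rnf208.

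When array set was added to the fit as a block, the picture of the family changed in number but not in outcome. On MOE430A, 13 of 101 Rnf probe sets had an unadjusted p under 0.05 (12.9%, against 7.19% of all probe sets), and on MOE430B 3 of 67 (4.48%, against 5.06%). The lowest adjusted p was 0.628 on MOE430A and 0.900 on MOE430B by limma, so that 0 passed the false discovery rate there too. Of the fitted differences, 95 of 101 and 56 of 67 kept their sign, and 63 and 37 became smaller. The medians were 0.05 and -0.02.

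**Figure D3:**
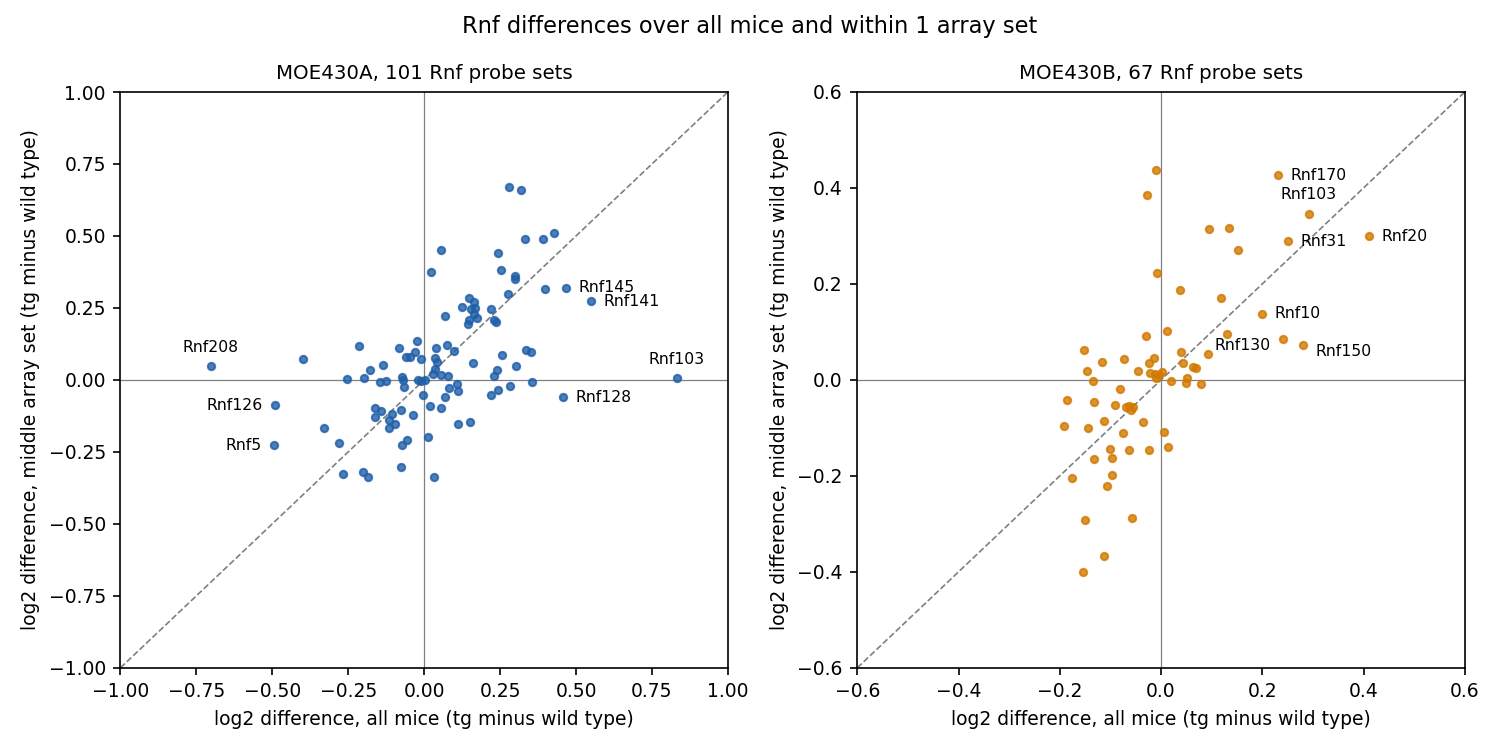
Log2 difference of every Rnf probe set over all mice (horizontal axes) and in the middle array set alone (vertical axes), for MOE430A (left, 6 against 5 and 4 against 2 mice) and MOE430B (right, 6 against 6 and 4 against 3 mice); the dashed line marks equal values and the 2 panels have different scales. The probe sets with the largest differences over all mice, Rnf103 (0.83) and Rnf208 (-0.70), lie near 0 in the middle set, while Rnf145, Rnf141 and Rnf20 are at 0.32, 0.27 and 0.30 there.

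Probe sets of the same gene often had different signs. Of 48 genes with 2 or more probe sets, 20 had differences of one sign and 28 of both. Signs were counted without regard to size, so values near 0 count as well, and the median standard error was 0.16 on MOE430A and 0.11 on MOE430B. The share over all genes was not counted, so these numbers are not read as a trait of the family. In 4 genes, namely Rnf141, Rnf20, Rnf103 and Rnf13, the probe sets differed from each other by 0.5 or more. Probe sets of a gene can lie in different exons or transcript ends, and which of them were measured here was not examined. Of the members named above with an unadjusted p under 0.05, Rnf103 and Rnf166 had more than 1 probe set and the same sign on each, Rnf145 and Rnf150 had 1 probe set, and the others had both signs.

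**Figure D4:**
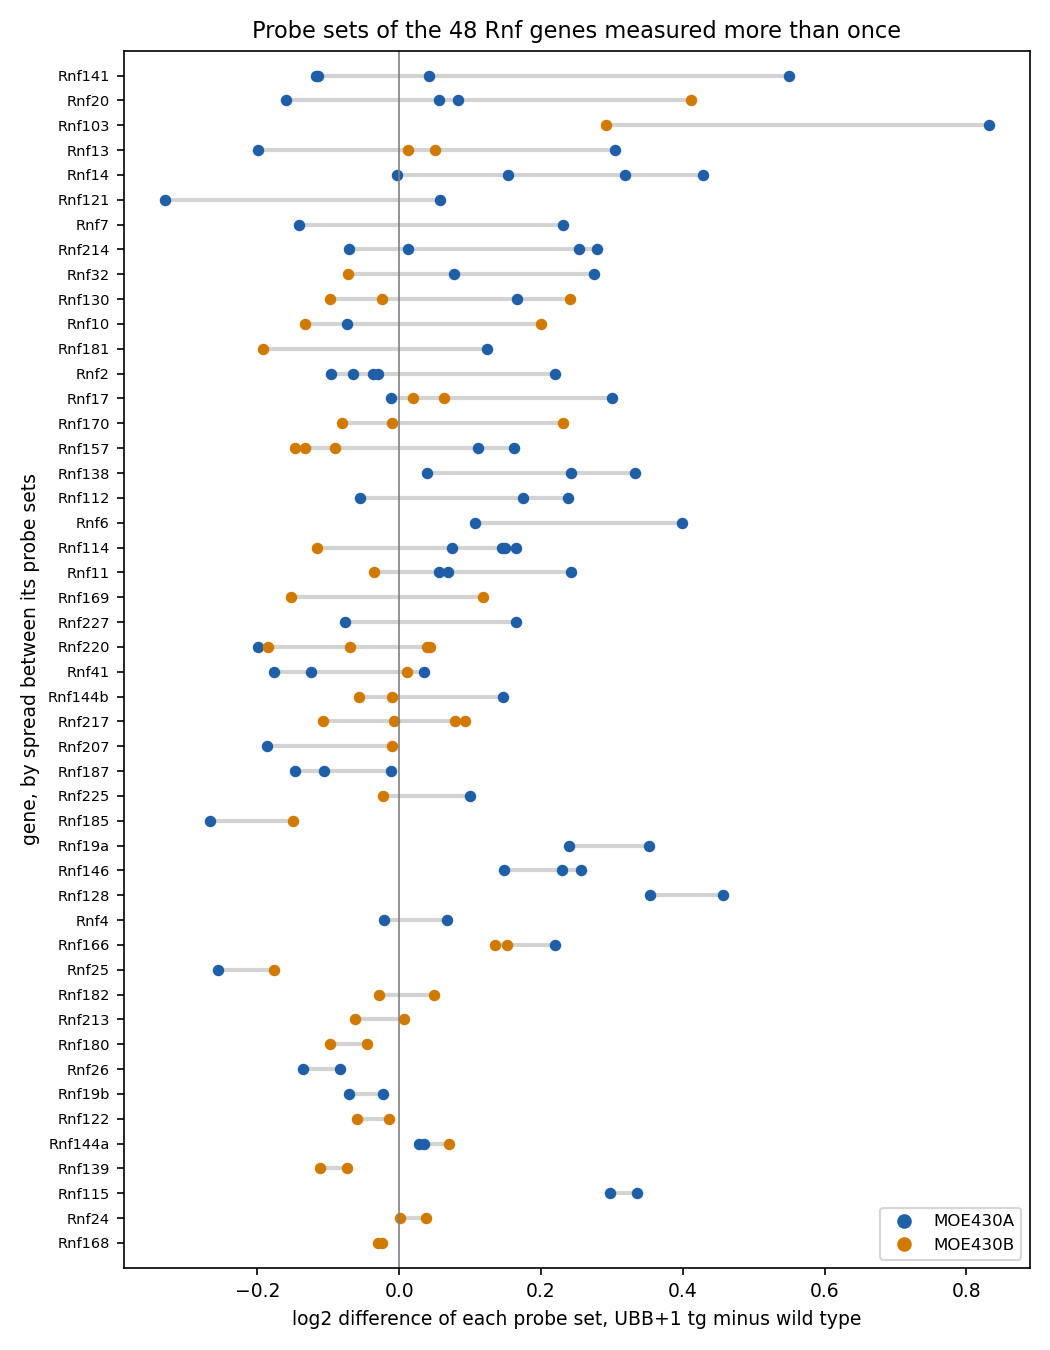
Log2 difference between UBB+1 tg and wild-type CA3 (horizontal axis) of each probe set of the 48 Rnf genes with 2 or more, 1 line per gene in order of the spread between its probe sets, blue for MOE430A and orange for MOE430B. Points of 28 genes lie on both sides of 0, and Rnf141, Rnf20, Rnf103 and Rnf13 have the widest spread.

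The precision of the arrays set how large a difference could have been missed. On MOE430A the 95% interval of the difference lay within 1.5-fold in either direction for 63 of 101 Rnf probe sets and within 2-fold for 92. On MOE430B it did so for 58 and 66 of 67. Rnf208 was at -1.68 to 0.27 and Rnf103 on MOE430A at -0.09 to 1.75 on the log2 scale. For most members a 1.5-fold difference of the measured intensity thus lay outside the interval. Where the interval included 0, the difference could not be told from 0. Some intervals left out 0, such as that of the lower Rnf13 probe set on MOE430A (-0.37 to -0.03), but they are not adjusted for the number of probe sets. RMA values understate the change of dim probe sets, and dim ones made up 12 of the 101 members on MOE430A and 7 of the 67 on MOE430B.

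The regions around the transcription start are shown for Rnf103 and Rnf145, the membrane ligases with the largest rises, and for Rnf208, which had the largest fall. They were taken from RefSeq on GRCm38.p6, and all lie on the plus strand. Capitals mark the GC box GGGCGG on either strand, a motif that factors of the Sp family bind, chosen after the values had been seen. It occurred in a 300-base start region of 44 of the 62 Rnf genes for which one was available (71.0%), in 49.2% of protein-coding genes and in 35.7% of all start regions. Rnf103 (chr6:71493627-71493926) had 2 such boxes, Rnf145 (chr11:44518706-44519005, the first of its 3 start regions in the table) had 1 and Rnf208 (chr2:25242679-25242978) had 0. A match is a run of letters and says nothing of binding in CA3.
Rnf103: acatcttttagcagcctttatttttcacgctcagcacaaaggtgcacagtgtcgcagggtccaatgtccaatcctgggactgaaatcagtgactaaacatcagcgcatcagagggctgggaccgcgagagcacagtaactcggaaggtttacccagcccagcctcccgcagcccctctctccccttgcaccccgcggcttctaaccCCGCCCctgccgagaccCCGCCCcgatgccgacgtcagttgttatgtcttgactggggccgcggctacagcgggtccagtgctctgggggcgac
Rnf145: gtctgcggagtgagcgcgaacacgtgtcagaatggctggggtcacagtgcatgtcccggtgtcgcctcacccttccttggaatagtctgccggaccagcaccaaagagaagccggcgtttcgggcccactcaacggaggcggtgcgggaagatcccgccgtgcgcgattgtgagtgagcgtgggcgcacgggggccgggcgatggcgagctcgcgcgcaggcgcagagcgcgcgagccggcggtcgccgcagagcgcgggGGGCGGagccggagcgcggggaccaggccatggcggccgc
Rnf208: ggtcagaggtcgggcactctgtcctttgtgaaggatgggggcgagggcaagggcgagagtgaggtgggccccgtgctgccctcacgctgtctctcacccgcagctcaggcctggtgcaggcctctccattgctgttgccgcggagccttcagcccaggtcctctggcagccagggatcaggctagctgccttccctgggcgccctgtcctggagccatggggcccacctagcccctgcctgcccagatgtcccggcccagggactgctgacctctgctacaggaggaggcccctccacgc

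Enzymes upstream of the Rnf ligases showed the same kind of result. Of 19 measured E1 and E2 genes, taken by their probe set of highest level, 14 were higher and 5 lower with a median of 0.09, and 0 passed the false discovery rate by limma. Ube2j1, the E2 enzyme of the endoplasmic reticulum, was the only one with an unadjusted p under 0.05, beside 3.48% of all probe sets on MOE430A, at 0.37 (standard error 0.15, adjusted p = 0.984). In the blocked fit of limma its unadjusted p was 0.0501, and Ube2w, at -0.48, and Ube2v1, at -0.27, had 0.0204 and 0.0499. Ube2n, which builds chains that serve signalling, had -0.52 (standard error 0.34) and Ube2e2 -0.15.

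Of 22 measured RING ligases and subunits outside the Rnf names, 10 were higher and 12 lower with a median of -0.03, and 0 passed the false discovery rate by limma. Unadjusted p was under 0.05 for 1 higher and 2 lower genes, beside 3.48% of all probe sets on MOE430A and 3.05% on MOE430B. Ring1, the paralog of Rnf2 in Polycomb complexes, had -0.44 (standard error 0.16), and Znrf3, the paralog of Rnf43, had -0.19 (standard error 0.08). Birc2, a ligase that blocks cell death, had 0.39 (standard error 0.16). In the blocked fit Ring1 and Znrf3 kept an unadjusted p under 0.05, and Birc2 did not (limma, unadjusted p = 0.0507).

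Partners and substrates of Rnf proteins did not differ by any threshold. Of 11 measured genes, 6 were higher and 5 lower, with a median of 0.05, and 0 had an unadjusted p under 0.05 or passed the false discovery rate by limma. The smallest p belonged to Herc2, which acts with Rnf8 at DNA breaks, at 0.33, Maoa, the substrate of Rnf180, at 0.30, and Mdc1, which recruits Rnf8, at 0.16.

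Markers were used to check the tissue. CA3 and pyramidal markers Bok, Grik4, Nectin3 and Hs3st4 were well above the dim range in both genotypes, while Coch, also used for CA3, was dim. Of the dentate granule cell markers Prox1 was dim, but Dsp, Dock10 and C1ql2 were not, at percentiles 30.6, 59.4 and 73.2 of mean level. Wfs1 of CA1 and Pcp4 of CA2 were at percentiles 71.7 and 85.5. How pure the CA3 tissue was cannot be read from these levels and was not tested. The probe set taken for Camk2a, a gene of excitatory neurons, was dim as well. The probe set that the methods exclude, because it reads transcribed sequence of the CaMK2α promoter, was left out. A dim value of 1 probe set does not give the level of the gene, and the transgene itself was not analysed here. No list of markers had a gene with an unadjusted p under 0.05, for neurons, CA3, CA1, CA2, dentate granule cells, interneurons, astrocytes, oligodendrocytes, microglia, vessels or choroid plexus. With set as a block, 5 marker genes had one (limma, not adjusted), beside 7.19% of all probe sets on MOE430A and 5.06% on MOE430B. All 5 were measured on MOE430A. For CA2 these were Rgs14 (0.52) and Pcp4 (0.82) of 3 measured markers. The others were Snap25 (0.41) of 5 neuron markers, Gad1 (0.26) of 6 interneuron markers and, lower, C1qa (-0.37) of 6 microglia markers. Over all mice the widest differences among markers were those of Sst (-0.82, standard error 0.44), Slc17a7 (-0.52), Syn1 (-0.48) and Npy (-0.46). On MOE430A, the mean log2 intensity of the 6 microglia markers was 7.30 to 7.65 in UBB+1 tg and 7.02 to 7.79 in wild-type mice, and that of the 4 measured oligodendrocyte markers 8.25 to 8.81 and 8.24 to 8.63. Mean levels of the 5 astrocyte markers were 6.64 to 7.29 and 6.87 to 7.52, and those of the 6 interneuron markers 7.54 to 8.64 and 7.98 to 8.32. CA2 markers on that array had means of 7.80 to 10.19 and 7.77 to 9.07, so that the genotypes overlapped for each of these cell types. The part of other cell types in the Rnf values was not tested.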

How the data were processed

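Expression was measured on 1-colour Affymetrix arrays, on which no values are counts. The intensities of MOE430A and the log2 values of MOE430B are those deposited by the authors, who background-corrected, quantile-normalized and summarised them by RMA, separately for each kind of array. MOE430A values are rounded to whole numbers and were taken to log2 here. The RMA version is not given in the sources used here. The labels name the Mini version of the RNA kit and the methods the Micro version.

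Genotypes were compared in R 4.3.3 with limma 3.58.1 (lmFit, then eBayes) over 22625 and 22511 probe sets. Adjustment was by Benjamini-Hochberg within each kind of array, at a false discovery rate of 10%. The study used RMA, limma and that rate as a second analysis after ChipInspector, which was not run here. Its authors reported regulated genes at that rate, ubiquitin ligases among them, whereas 0 probe sets of either array passed here. The reason for the different outcome was not tested. Control probe sets (64 per array) and 1 probe set that the methods exclude were left out. Single values were compared by exact permutation tests over mice, two-sided. The fit was tested on simulated data. A mouse's own other array was the closest one for 11 of 11 mice over 100 probe sets that both arrays hold, and no columns were identical. Nothing in the labels pairs mice of the 2 genotypes. Gene names are those of the array annotation, and the gene identifiers of all 168 Rnf probe sets matched RefSeq. The number of arrays limits the precision.

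Members and gene lists were chosen with earlier results of these data known. Named were, per array, the 10 Rnf probe sets with the smallest p, the 5 largest rises and falls, any whose genotypes did not overlap, every gene of a role list, genes whose probe sets differ by 0.5 or more, and up to 3 genes per pathway list. Rnf34, Rnf146, Rnf112, Ube2w, Ube2v1, the markers with values and a few further probe sets were named after their values were seen. Alternatives were other normalizations, filters, floors, variance models, array weights, the 3'-5' difference as a covariate, array sets as a block or alone, probe sets averaged per gene, shared mice only, a rate of 5%, and leaving out each mouse. Differences within the low and the high array set were added after the data were seen.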

Additional observations from a re-analysis of the deposited data

Results flagged for a closer look

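In 3 of 60 groups of 5 or 6 mice, a mouse lay further from its group than Dixon's 95% limit allows, and chance marks about 1 group in 20. For Rnf13 on MOE430A, wild-type mouse wt321 had a log2 intensity of 6.55, while the nearest of the other 4 wild-type mice had 6.36. It belongs to the middle array set, and without it the log2 difference of that probe set was -0.16 in place of -0.20. For the dim probe set of Rnf141, wild-type mouse wt289 of the high array set had 3.58, and the other 4 wild-type mice had the identical value of 3.46. At this level the deposited whole numbers step by that much, so that the distance is a single step. For Rnf144b on MOE430A, UBB+1 tg mouse tg276 of the middle array set had 5.49 and the nearest UBB+1 tg mouse 5.32.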

How the results depend on the processing

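No paired analysis was possible because mouse numbers differ between UBB+1 tg and wild type and no litters are named. No Rnf probe set passed the false discovery rate of 10% under any alternative run, with 10 kinds of setting on MOE430A and 11 on MOE430B, and the lowest adjusted p of 30 tested members was 0.473 (array weights, limma). The number with an unadjusted p under 0.05 on MOE430A was 6 in the report (3.48% of all probe sets). It was 18 with array weights (10.4% of all) and 13 with set as a block (7.19% of all). Leaving out 1 mouse gave 2 to 11, with 11 without mouse tg271 or wt289, 3 without tg274 and 2 without tg277. On MOE430B it was 4 in the report (3.05% of all probe sets), 2 with a covariate for the 3'-5' difference and 2 with shared mice only. Leaving out 1 mouse there gave 2 to 4, the 2 arising without mouse tg273, tg274, wt287 or wt331. For the runs with 1 mouse left out, a covariate or shared mice only, the share of all probe sets is not given. Their counts are therefore not read as a result about the members. The median difference on MOE430A was 0.012 in the low array set and 0.03 to 0.07 with 1 mouse left out. On MOE430B it was 0.011 in the middle set and -0.04 to -0.01 with 1 mouse left out. Direction reversed for 6 of the 30 members. In the middle array set alone these were Rnf128 (-0.060), Rnf167 (0.073), Rnf208 (0.047), Rnf114 (0.038) and Rnf169 (0.061), and in the blocked fit Rnf130 (-0.010 on its leading MOE430B probe set). With 1 mouse left out Rnf169 ranged from -0.35 without wt289 to 0.0026 without wt290. The cause was not tested. Signal over background limits the dim probe sets most, 12 of the members on MOE430A and 7 on MOE430B.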
